A study of Mus musculus with 3 samples.

Results

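Distal 3′ UTR sites were the predicted m6A sites that lay more than 1000 nt after the stop codon on the spliced transcript. They were taken from the list of predicted sites of RAW264.7 cells, a mouse macrophage cell line. For each protein-coding gene of GENCODE M21 (GRCm38), 1 transcript was read on the strand of the site, namely the one with the longest coding sequence (CDS). Of 19301 listed sites, 941 (4.88%) in 371 genes were distal, out of 8181 sites in 3′ UTRs (11.5%). The other 7240 sites in 3′ UTRs lay within 1000 nt of the stop codon and are called near sites below. A further 9649 sites lay in the CDS.

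The study profiled poly(A)+ RNA of untreated RAW264.7 cells by miCLIP2, in 3 biological replicates of 1 condition. In miCLIP2, UV light links an m6A antibody to the RNA, and the linked nucleotide is read from where the cDNA is truncated. The machine learning model m6Aboost then gives each peak at an A a prediction score, and the list holds the sites with a score above 0.5, pooled over the replicates. The list carries no counts, no coverage and no replicate values. The depth of a site is thus unknown, and no comparison could be tested across replicates. Shares are therefore given with 95% Wilson intervals, which cover counting error only, and neighbouring sites of 1 transcript are not independent. The series description calls the line human, whereas the organism label names mouse, and all 18294 sites placed on 1 chosen transcript were at A in the mouse sequence. A gene without a listed site may still be expressed. Among 9 macrophage marker genes, 5 held a listed site, 2 of them with a 3′ UTR over 1000 nt, and the high-affinity Fc receptor Fcgr1 was the 1 with distal sites.

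N6-methyladenosine is written on nascent mRNA by the methyltransferase complex of Mettl3 and Mettl14, mostly at A in the DRACH context (D is A, G or T, R is A or G, H is A, C or T), and it is known to accumulate around stop codons and in 3′ UTRs. Reader proteins of the YTH family bind the mark and influence the decay and translation of the mRNA. Long 3′ UTRs also carry sites for microRNAs and RNA-binding proteins, and alternative polyadenylation can remove their distal end.

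The 10 distal sites with the highest prediction score are shown first, since they give the sequence that the model called most firmly. Each sequence is the GENCODE M21 transcript sequence of 21 nt centred on the listed A, 5′ to 3′ on the strand given, with its GRCm38 position and the pentamer around the A in capitals.
Ptpn11 (chr5:121132034-121132054, -): gtcacaatGAACTgtgttggg
Anks1 (chr17:28062337-28062357, +): gggactttGGACTctgaggtt
Larp1 (chr11:58060441-58060461, +): gtaatgaaGGACTgagcacac
Arid3a (chr10:79952964-79952984, +): cagggcaaGGACTagacttga
Ube4b (chr4:149328517-149328537, -): aaagaaatGAACTcttcagaa
Nfam1 (chr15:82998133-82998153, -): aggacgggGAACTgtttggca
Cx3cr1 (chr9:120050175-120050195, -): tggatcagGAACTgttaccct
Cacfd1 (chr2:27020448-27020468, +): tgatctgtGGACTttggggat
Gja1 (chr10:56390143-56390163, +): atttatttGAACTgtaagcta
Ptpn7 (chr1:135144415-135144435, +): tcagggatGAACTatgaatcc

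All 10 were at GAACT or GGACT, and their scores ran from 0.982 to 0.991. The highest score, 0.991, was at a GAACT in Ptpn11, which encodes the tyrosine phosphatase SHP2, 2124 nt after the stop codon and 1503 nt before the transcript end. The other sites at GAACT were those of Ube4b (0.986), a ubiquitin ligase, the ITAM-bearing receptor Nfam1 (0.984), the fractalkine receptor Cx3cr1 (0.984), the gap junction protein Gja1 (0.983) and the phosphatase Ptpn7 (0.982). Anks1, the RNA-binding protein Larp1 and the transcription factor Arid3a each had a GGACT site at 0.988, and Cacfd1 had 1 at 0.983. The Ube4b site lay 111 nt before its transcript end, whereas the Nfam1 site had 5170 nt of 3′ UTR behind it.

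The 6 sites farthest from the stop codon, 1 per gene, are shown because they mark how far along a 3′ UTR a site was still listed.
Aak1 (chr6:86996055-86996075, +): gacatgctGGACTgcagtggg
Nfam1 (chr15:82993908-82993928, -): gggcctctGGACGgcgtgaga
Ccdc50 (chr16:27451773-27451793, +): attgaataAAACTgtgaggag
Itga4 (chr2:79331894-79331914, +): ggaacaaaGGACAtagggaag
Cbl (chr9:44146223-44146243, -): tcactgatGGACTattcgaat
Klf13 (chr7:63886705-63886725, -): catcggtgGAACTtctggggg

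The farthest site was in Aak1, a kinase of clathrin-mediated endocytosis, 8767 nt after the stop codon in a 3′ UTR of 15925 nt. Its score was 0.878, and a second GGACT 8742 nt after the stop codon scored 0.829. These were the only 2 sites listed for the Aak1 transcript. The sites of Ccdc50 (5516 nt, score 0.903), the integrin subunit Itga4 (5289 nt, 0.886) and the ubiquitin ligase Cbl (5212 nt, 0.88) also scored above the distal median of 0.773. The site of Nfam1 at 5818 nt (0.527) and that of the transcription factor Klf13 at 4793 nt (0.715) scored below it. The Nfam1 site was the 1 of these 6 outside DRACH, with G as the last base of the pentamer, and both it and the Cbl site lay past the ends of the RefSeq mRNAs of their genes. All of these 6 sites except that of Itga4 also lay past the end of a shorter annotated transcript of the gene.

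The 6 sites closest to an annotated transcript end, 1 per gene, are shown because few sites came this close.
Tnfaip2 (chr12:111454607-111454627, +): ccattaacTAACTcctgtcac
Iqgap1 (chr7:80711647-80711667, -): aagaatttGGACTggccgtca
Rptor (chr11:119899322-119899342, +): agttgaaaGGACTgacaggac
Fgd3 (chr13:49261623-49261643, -): tcattccaGGACCctaagcct
Hdgf (chr3:87916041-87916061, +): aaaattgcTGACTgtagcttt
Nol9 (chr4:152059924-152059944, +): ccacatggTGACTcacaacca

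They were 61 nt (Tnfaip2, a gene induced by TNF, score 0.569), 74 nt (the scaffold protein Iqgap1, 0.73), 75 nt (Rptor, a subunit of the mTOR complex, 0.902), 79 nt (Fgd3, 0.86), 81 nt (Hdgf, 0.668) and 90 nt (Nol9, 0.663) before the end. The end is that of the transcript read here. The annotation of the gene ran on past it by 340 nt in Tnfaip2, 169 nt in Rptor and 1470 nt in Nol9, so other transcripts of these 3 genes end farther on. The Fgd3 site lay past the ends of the RefSeq mRNAs of that gene.

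Distal sites were spread along the 3′ UTR with most of them in its first 2000 nt. Their distance after the stop codon ran from 1002 to 8767 nt, with quartiles of 1190, 1493 and 1947 nt. Over 2000 nt there were 227 sites (24.1%, 21.5 to 27.0), and over 3000 nt 70 sites (7.44%, 5.93 to 9.29). The distance to the annotated transcript end ran from 61 to 9749 nt, with quartiles of 433, 913 and 1896 nt, and 647 sites (68.8%, 65.7 to 71.6) were nearer to the end than to the stop codon, as any distal site in a 3′ UTR of up to 2000 nt must be. Within 500 nt of the end lay 283 sites (30.1%, 27.2 to 33.1), and within 200 nt 75 sites (7.97%, 6.41 to 9.88). All but 2 were in the last exon, the exceptions being sites in Marveld1 (0.82) and Rhof (0.673). The threshold of 1000 nt cut through a continuous range of positions: 128 sites lay 1001 to 1100 nt after the stop codon (median score 0.759) and 120 sites 901 to 1000 nt after it (0.767).

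To set the number of sites against the number of positions, all DRACH A were counted on the 2481 transcripts with a listed site and a 3′ UTR over 1000 nt. Of 75805 distal DRACH A on these transcripts 868 were listed (1.15%, 1.07 to 1.22), compared with 3914 of 49666 near DRACH A (7.88%, 7.65 to 8.12). The share fell at each step away from the stop codon. It was 15.5% (14.9 to 16.2) in the first 250 nt, 2.85% (2.56 to 3.16) from 751 to 1000 nt, 2.42% (2.15 to 2.72) from 1001 to 1250 nt, 1.44% (1.26 to 1.64) from 1501 to 2000 nt and 0.315% (0.249 to 0.399) beyond 3000 nt. The intervals on both sides of 1000 nt overlapped, and no step stood out there. In 3′ UTRs over 3000 nt, a subset chosen after these values were seen, the share fell in the same order from 15.2% (14.1 to 16.4) in the first 250 nt to 2.14% (1.70 to 2.70) from 1001 to 1250 nt and 0.815% (0.676 to 0.983) from 2001 to 3000 nt. The median score of the listed sites, which the list cuts off at 0.5, went from 0.79 in the first 250 nt to 0.769 from 1001 to 1250 nt. Farther on it was 0.792, 0.769 and 0.761, and 0.813 for the 70 sites beyond 3000 nt. Read coverage along the 3′ UTR is not in the list, and its part in the fall was not tested.

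**Figure D1:**
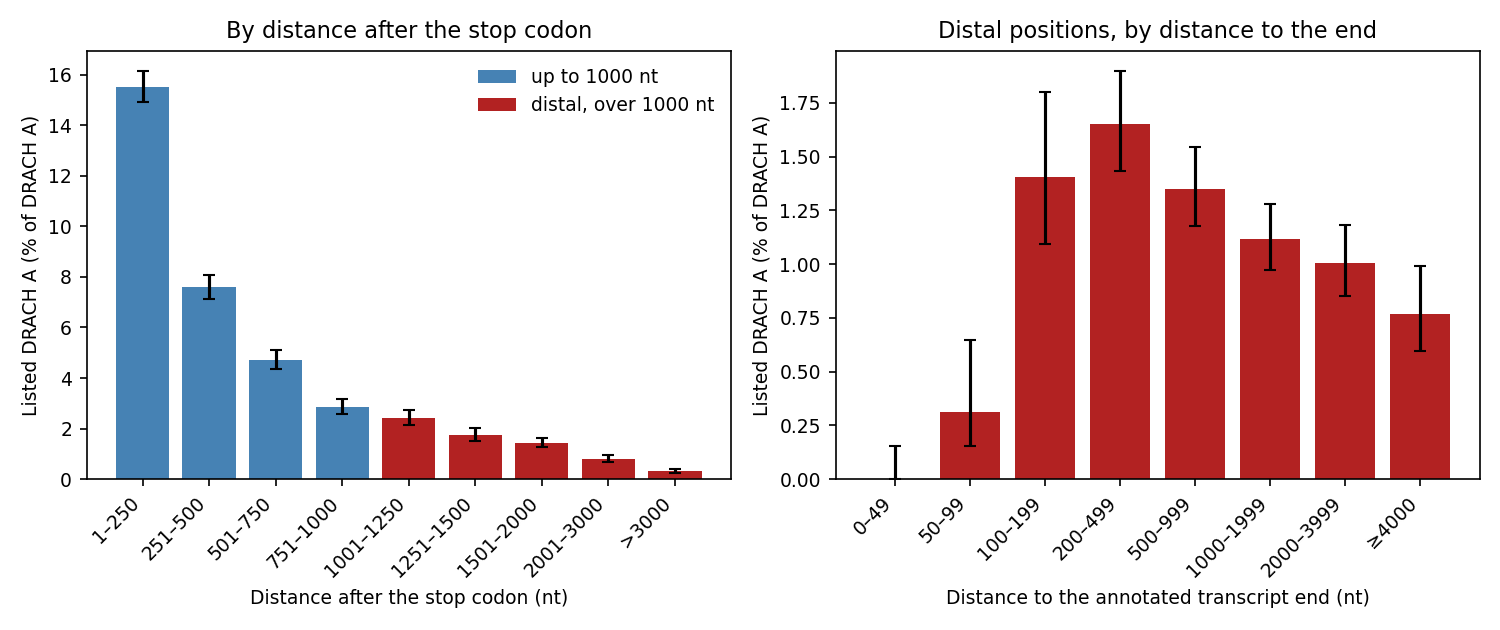
Share of DRACH A that were listed as m6A sites, in percent, on the 2481 transcripts with a listed site and a 3′ UTR over 1000 nt. Left, by distance after the stop codon (blue up to 1000 nt, red distal); right, distal positions only, on a smaller scale, by distance to the annotated transcript end. Bars are shares, bins differ in width, and error bars are 95% Wilson intervals. The share falls from 15.5% to 0.315% along the 3′ UTR and is 0 in the last 50 nt.

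Close to the transcript end the share was lower again. Among distal DRACH A, 0 of 2471 were listed in the last 50 nt, which allows a share of up to 0.121% (taken for any count of 0 as 3 counts of the total, while the Wilson upper limit is 0.155%), and 7 of 2229 (0.314%, 0.152 to 0.647) from 50 to under 100 nt before the end. From 100 to under 200 nt it was 61 of 4343 (1.40%, 1.09 to 1.80), and from 200 to under 500 nt 193 of 11700 (1.65%, 1.43 to 1.90). Farther from the end it was between 0.768% (0.595 to 0.991) and 1.35% (1.18 to 1.54). In the last 100 nt, with 7 of 4700 (0.149%, 0.0722 to 0.307), the interval lay below those of all bins farther from the end, and the bins from 100 to under 2000 nt had intervals between 0.973% and 1.90%. The near DRACH A of the same transcripts that fell within the last 100 nt were too few for a comparison, with 1 of 156 listed (0.641%, 0.113 to 3.54). In genes whose annotation ends with the transcript read, a choice made after these values were seen, it was 4 of 3901 in the last 100 nt (0.103%, 0.0399 to 0.263) and 49 of 3560 from 100 to under 200 nt (1.38%, 1.04 to 1.82). The list holds no read coverage, and its part in this value was not tested. The study also removed very short reads, so the assay can miss an A next to the transcript end. The limits given for the last 50 nt are thus limits on listing and not on methylation.

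Longer 3′ UTRs held a distal site more often, but at a lower rate per position over their whole distal part. A distal site was listed in 49 of 710 genes with a 3′ UTR of 1001 to 1500 nt (6.90%, 5.26 to 9.01), 76 of 487 with 1501 to 2000 nt (15.6%, 12.7 to 19.1) and 32 of 161 with over 5000 nt (19.9%, 14.5 to 26.7). Over the same classes the share of distal DRACH A that were listed went from 2.09% (1.65 to 2.63) to 1.96% (1.66 to 2.31) and 0.512% (0.423 to 0.620). The share of genes from 2001 nt upward varied by less than its intervals, from 18.7% to 19.9%. The genes counted hold a listed site anywhere, and 59 of the 371 with a distal site held no other. At equal distance the listed share in 3′ UTRs over 3000 nt was close to that of all these transcripts. From 1001 to 1250 nt it was 2.14% (1.70 to 2.70) beside 2.42% (2.15 to 2.72). From 2001 to 3000 nt it was 0.815% (0.68 to 0.98) beside 0.796% (0.68 to 0.93).

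Scores of distal sites covered much the same range as those of near sites and had a higher median than those of CDS sites. The median was 0.773 for distal sites (quartiles 0.654 and 0.869), 0.789 for near sites (0.678 and 0.868) and 0.70 for CDS sites (0.602 and 0.796). A score of at least 0.7 was reached by 66.2% (63.1 to 69.2) of distal, 70.5% (69.4 to 71.5) of near and 49.9% (48.9 to 50.9) of CDS sites. At 0.9 or more these shares were 13.5% (11.5 to 15.8), 14.8% (14.0 to 15.6) and 4.02% (3.65 to 4.43). The transcript region is an input of the model, so the score of CDS and 3′ UTR sites cannot be compared apart from it. The 1080 near sites in the 371 genes with a distal site had a median score of 0.779, and 68.3% (65.5 to 71.0) of them reached 0.7, an interval that overlaps that of distal sites. Within the 282 genes that held both kinds, the mean score of distal sites was the lower in 155 (55.0%, 49.1 to 60.7), and the distal minus near difference had a median of -0.018 and an SD over genes of 0.136. The mean over these genes was 0.741 at distal and 0.759 at near sites.

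**Figure D2:**
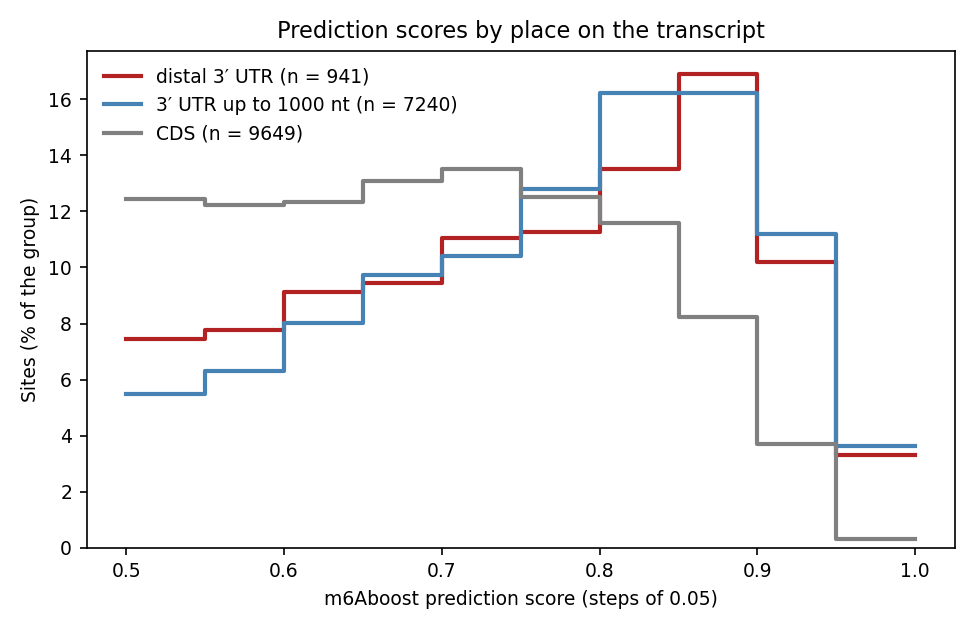
Distribution of the m6Aboost prediction score (x axis, no unit, steps of 0.05) as a percentage of the sites in each group (y axis), for 941 distal 3′ UTR sites in red, 7240 sites up to 1000 nt after the stop codon in blue and 9649 CDS sites in grey. The red and blue outlines run close together, with medians of 0.773 and 0.789, and the grey outline lies at lower scores.

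At distal sites DRACH was the sequence in 868 of 941 cases (92.2%, 90.4 to 93.8), beside 90.9% (90.3 to 91.6) of near sites, 88.1% (86.0 to 89.9) of near sites of the same 371 genes and 92.5% (91.9 to 93.0) of CDS sites. C followed the A in 97.4% (96.2 to 98.3) of distal sites, G preceded it in 68.5% (65.5 to 71.4) and C preceded it in 0 of 941, which allows a share of up to 0.319% (Wilson upper limit 0.407%). GGACT was the most frequent pentamer (195 sites, 20.7%, 18.3 to 23.4), followed by GAACT (138 sites, 14.7%), AGACT (114 sites, 12.1%), GGACA (111 sites, 11.8%) and TGACT (92 sites, 9.78%). Near sites of the same 371 genes were at GGACT in 14.4% (12.4 to 16.6), an interval below that of distal sites, while all near sites were at GGACT in 18.8% (17.9 to 19.7), which overlapped it. Pentamers ending in T made up 68.9% (65.8 to 71.7) of distal sites, 63.4% (62.3 to 64.5) of near sites and 59.4% (56.5 to 62.3) of near sites of the same genes. GGACC was held by 4.04% (2.96 to 5.49) of distal and 6.30% (5.76 to 6.88) of near sites. In near sites of the same genes it was 6.48% (5.16 to 8.11), and in near sites of 3′ UTRs over 1000 nt 5.95% (5.28 to 6.69). Both of these intervals overlapped that of distal sites. Of the 73 distal sites outside DRACH, 20 were at GTACT, 11 at GGACG, 8 at GGATT and 7 at ATACT.

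Counted against their number in the distal 3′ UTRs of the 371 genes, the pentamers differed widely in how often they were listed. GGACT was listed at 195 of 768 positions (25.4%, 22.4 to 28.6), GAACT at 138 of 780 (17.7%, 15.2 to 20.5), AGACT at 114 of 906 (12.6%, 10.6 to 14.9) and GGACA at 111 of 886 (12.5%, 10.5 to 14.9). At the other end, TGACC was listed at 1 of 764 positions (0.131%, 0.0231 to 0.738) and AAACC at 0 of 770, which allows a share of up to 0.390% (Wilson upper limit 0.496%). Since these genes were taken for holding a distal site, the rates are higher than over all transcripts. The model reads the bases around the A, and the order of the pentamers therefore includes its own weights.

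The bases around listed distal sites also differed from those around unlisted distal DRACH A of the same 3′ UTRs. Within 50 nt on either side, 48.0% ± 6.29 (SD, n = 868 sites) of bases were A or T at listed sites, compared with 53.9% ± 8.81 (SD, n = 12744) at unlisted positions and 47.1% ± 6.93 (SD, n = 951) at near DRACH sites of the same genes. Because the model reads the 21 nt centred on the A, the bases 11 to 50 nt away were also read alone, a choice made after the first values were seen. There the content of A or T was 47.5% ± 6.82 (SD) against 53.7% ± 9.21 (SD), and the mean was lower around listed sites in 310 of 364 genes with both (85.2%, 81.2 to 88.5), with a median difference of -5.12 percentage points. Another 365 unlisted positions under 50 nt from the transcript end had no full window and were left out. The SDs are wide, and single sites of both kinds covered much of the same range. Listed and unlisted positions were not matched for distance from the stop codon or the transcript end. The listed share changed with both distances, and the part of position in the difference was not tested.

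**Figure D3:**
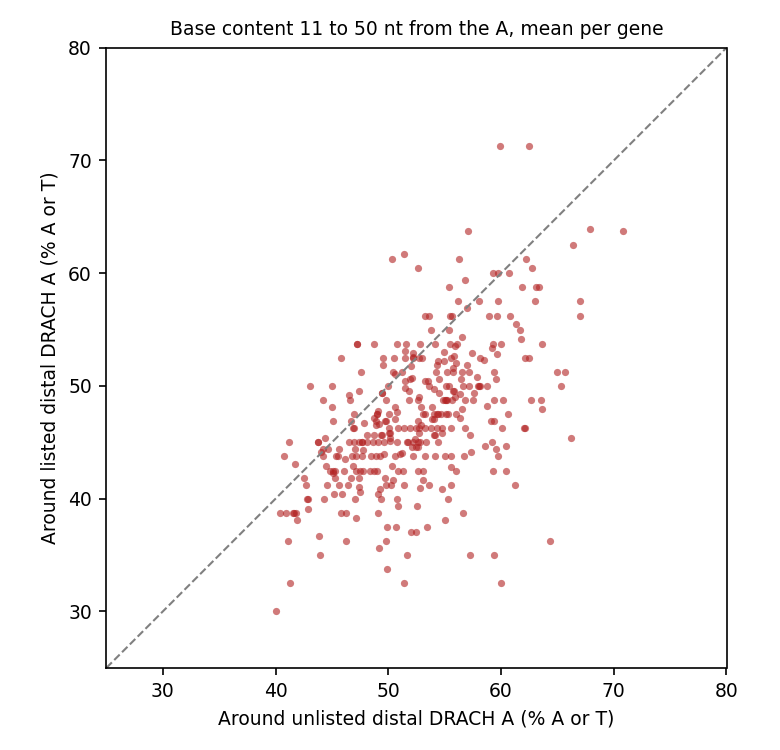
Percentage of A or T among the bases 11 to 50 nt from a distal DRACH A, as the mean per gene, for unlisted A (x axis) and listed A (y axis) of the same 3′ UTR. Each of the 364 points is 1 gene with both kinds, and the dashed line marks equal values. Most points, 310 of 364, lie below the line.

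Words rich in A and T were less frequent around listed distal sites, as were the bases A and T themselves. They were searched on the transcript strand only and allowed to overlap. The polyadenylation signal words AATAAA or ATTAAA occurred within 50 nt of 23 of 868 listed sites (2.65%, 1.77 to 3.95) and of 1111 of 12744 unlisted positions (8.72%, 8.24 to 9.22). For ATTTA, the core of AU-rich elements, the shares were 4.61% (3.40 to 6.21) and 10.96% (10.4 to 11.5). The Pumilio motif TGTANATA, with N for any base, was found at 3 listed sites (0.346%, 0.118 to 1.01) and 171 unlisted positions (1.34%, 1.16 to 1.56). Outside the 21 nt of the model, the polyadenylation words were at 1.73% (1.05 to 2.83) of listed and 6.68% (6.26 to 7.12) of unlisted positions. Here too listed and unlisted positions were not matched for distance from the stop codon or the transcript end, and the part of position was not tested. A match is a word in the sequence and says nothing on whether a factor binds it.

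Many distal sites had another site close by. Another listed site lay within 100 nt on the transcript for 582 of them (61.9%, 58.7 to 64.9), beside 67.4% (66.3 to 68.5) of near sites, 72.8% (70.1 to 75.4) of near sites in the same genes and 54.9% (53.9 to 55.9) of CDS sites. In at least 6 genes 3 distal sites fitted in a window of at most 30 nt, and 3 of these windows are shown to give the spacing, with each listed A in capitals. They were picked after their values were seen.
Ppm1l (chr3:69554720-69554746, +): agActtggActctgaggactgcaaAct
Dusp3 (chr11:101973607-101973635, -): aaActgactcgctggAcagaaacgagAct
Rassf4 (chr6:116636539-116636564, -): agActctgaaattgaaaacctgAAct

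In 5′ to 3′ order the sites of Ppm1l, a protein phosphatase, scored 0.895, 0.896 and 0.741, those of the dual-specificity phosphatase Dusp3 scored 0.81, 0.725 and 0.835, and those of Rassf4 scored 0.917, 0.512 and 0.933. The lowest of these was the first of a pair of adjacent A. The list does not show whether adjacent A shared reads. With sites within 5 nt merged, 925 distal sites remained in 371 genes.

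Distal sites were unevenly spread over genes. Of the 371 genes 157 (42.3%, 37.4 to 47.4) had 1 distal site, the median was 2, and the 54 genes with 5 or more held 360 of the 941 sites. The gene with most was Rassf4, of the Ras association domain family, with 18 distal and 9 near sites on a 3′ UTR of 5230 nt. Its distal scores ran from 0.512 to 0.943 (median 0.832), and 16 of the 18 lay between 1035 and 2571 nt after the stop codon, with the last 2 at 4207 and 4261 nt (0.866 and 0.825). Rassf2 of the same family had 12 distal and 7 near sites, scored 0.546 to 0.925 (median 0.733). All of its distal sites lay between 1007 and 2035 nt, so the remaining 4934 nt of its 3′ UTR held no listed site.

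The receptor Notch2 had 12 distal and 2 near sites on a 3′ UTR of 2917 nt, scored 0.555 to 0.914 (median 0.793), in 1 group from 1006 to 1451 nt and another from 2446 to 2614 nt. Pofut1, the enzyme that adds O-fucose to Notch receptors, had 8 distal and 2 near sites with scores from 0.636 to 0.948 (median 0.75), of which 5 lay between 3665 and 4220 nt, the last 144 nt before the transcript end. Nfam1 had 11 distal and 8 near sites, scored 0.527 to 0.984 (median 0.653). Of its distal sites 9 lay from 1055 to 1830 nt, and the other 2, at 5804 and 5818 nt (0.607 and 0.527), were past the ends of the RefSeq mRNAs.

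The 12 genes with most distal sites are described here. Of 5 genes that tied at 8 sites, 4 were taken by the higher mean score, and the helicase Dhx33 (8 sites, 0.58 to 0.886, median 0.783) was left out. Pi4k2a, which makes phosphatidylinositol 4-phosphate, had 10 distal sites and 1 near site, scored 0.574 to 0.929 (median 0.812). Pip5k1c, which uses that lipid, had 9 of each kind, and its distal sites scored 0.542 to 0.944 (median 0.812). Pip4k2b, which uses phosphatidylinositol 5-phosphate, had 9 distal and 8 near sites, and its distal sites scored 0.594 to 0.981 (median 0.825). In Pi4k2a the distal sites spanned 1098 to 1914 nt of a 3′ UTR of 2133 nt.

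The fatty acid desaturase Scd2 had 9 distal and 2 near sites with scores from 0.52 to 0.944 (median 0.683), between 1316 and 3147 nt. The amino acid transporter Slc38a2 had 8 distal sites and 1 near site, and its distal scores, 0.691 to 0.938 with a median of 0.882, had the highest median of the 12 genes. Lhfpl2 had 8 distal and 2 near sites (0.669 to 0.947, median 0.785), and the small GTPase Rab7b 8 distal and 9 near sites (0.613 to 0.922, median 0.779).

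**Figure D4:**
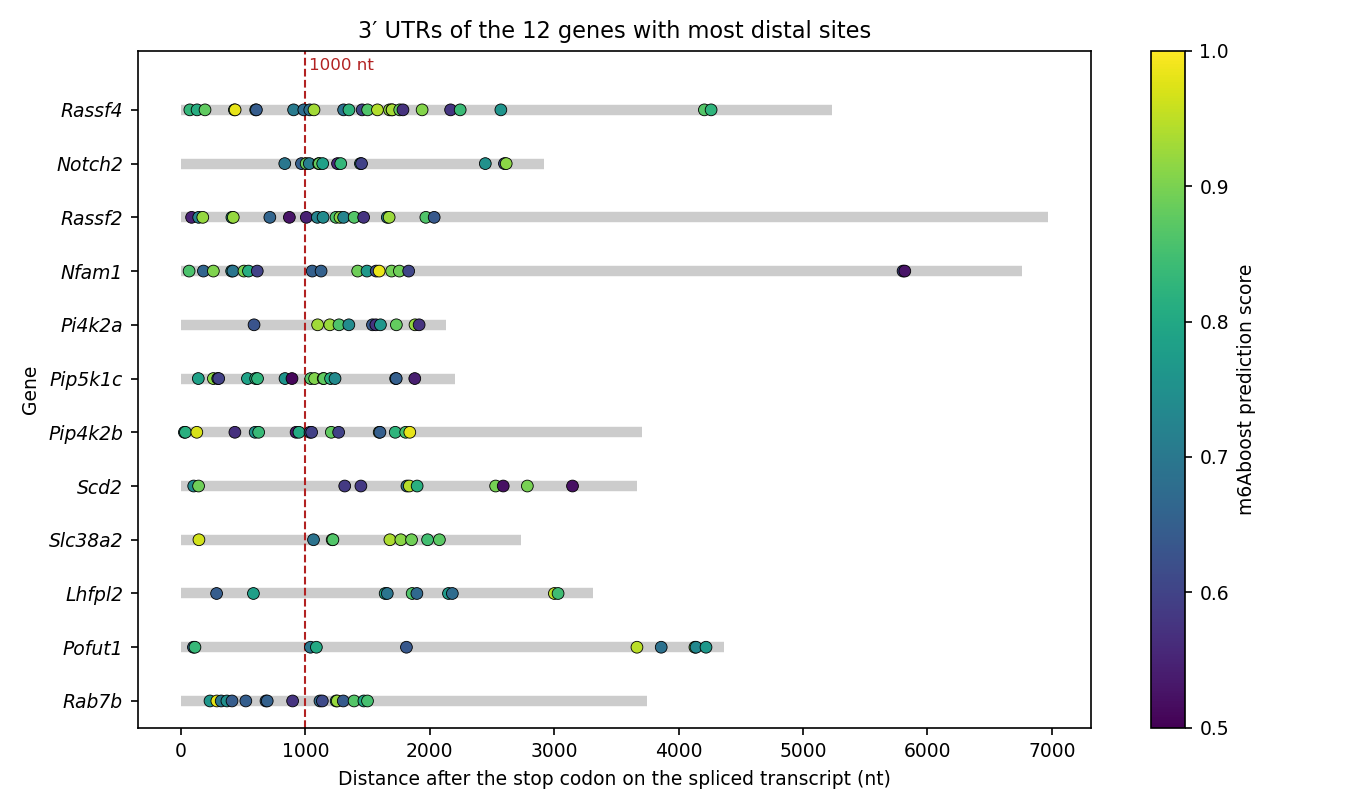
Listed sites on the 3′ UTRs of the 12 genes with most distal sites (ties at 8 sites by mean score, Dhx33 left out), by distance after the stop codon in nt on the spliced transcript (x axis), 1 gene per line. Grey bars are the annotated 3′ UTRs, points are sites coloured by prediction score, and the dashed line marks 1000 nt. Rassf4 holds 18 points right of the line and Rassf2 none beyond 2035 nt.

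In 89 of the 371 genes (24.0%, 19.9 to 28.6) the 3′ UTR had no near site, and in 59 (15.9%, 12.5 to 19.97) the distal sites were the only ones listed for the transcript. The TNF receptor Tnfrsf1b had 4 sites, all distal, at 1129, 1134, 1172 and 1264 nt with scores of 0.727, 0.925, 0.847 and 0.869. Blcap also had 4, at 1094, 1177, 1273 and 1387 nt, scored 0.857, 0.844, 0.925 and 0.916. In Gramd1b, a transporter of cholesterol at membrane contacts, 4 sites lay from 4002 to 4224 nt, scored 0.847, 0.825, 0.566 and 0.833. The pseudokinase Trib1 had a single site, at 1718 nt with a score of 0.943. The gene with most, I830077J02Rik, had 6 sites scored 0.502 to 0.85, all past the ends of its RefSeq mRNAs.

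The position of a site depends on which transcript is read. For 749 distal sites (79.6%, 76.9 to 82.0) the gene had another coding transcript with a stop codon, and 461 (49.0%, 45.8 to 52.2) were also in an exon of another one. In 40 cases (4.25%, 3.14 to 5.74) the site was within 1000 nt of the stop codon of another transcript. Past the end of a transcript with the same stop codon lay 265 sites (28.2%, 25.4 to 31.1), which is 49.4% (45.2 to 53.7) of the 536 sites with another transcript of that stop codon, so that an RNA of this shorter form would not hold the site. For 154 sites (16.4%, 14.1 to 18.9) the annotation of the gene ran past the end of the transcript read. Of 933 sites in genes with curated RefSeq mRNAs of the same build, 900 (96.5%, 95.1 to 97.5) were in a RefSeq exon, and 33 (3.54%, 2.53 to 4.93) in 13 genes lay past the RefSeq ends.

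To place the sites in pathways of the macrophage, 10 gene lists were read. Over all genes with a listed site and a 3′ UTR over 1000 nt, 371 of 2481 (15.0%) had a distal site. Of the 371, 59 held no other site and were counted only through their distal sites. Of the phosphoinositide, Ras and MAP kinase list 5 of 28 such genes had one (17.9%, 7.88 to 35.6), with 28 distal sites of median score 0.789. This list does not hold Pi4k2a, Pip5k1c or Pip4k2b, which were named for their number of sites. Rptor had 7 distal sites (0.608 to 0.926), the phosphatase Dusp3 7 (0.649 to 0.936) and the p38 kinase Mapk14 6 (0.543 to 0.963). Mapk14 had its top site at 1870 nt, 198 nt before the transcript end. The interval of this list includes the background of 15.0%.

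Of cytokines, growth factors and their receptors, 5 of 8 such genes had a distal site (62.5%, 30.6 to 86.3). They were Tnfrsf1b (4 sites), the interleukin 6 receptor Il6ra with 3 sites (0.588, 0.808 and 0.835 in rising order), Il10ra with 2 (0.929 and 0.792), the TGF-β receptor Tgfbr2 with 2 (0.652 and 0.792) and Il6st with 1 (0.563). The 12 sites had a median score of 0.8. The interval lay above 15.0%, but it rests on 8 genes of a list made with earlier results of these data known. Tnfrsf1b held only distal sites, so it was counted among the 8 only through them. The phagocytic receptor, integrin and lipid list had 4 of 15 (26.7%, 10.9 to 52.0). Itga4 had 5 distal sites at 1165, 1315, 1370, 5282 and 5289 nt, scored 0.931, 0.939, 0.854, 0.586 and 0.886. Fcgr1 had 3 (0.581, 0.789 and 0.569), and the inhibitory receptor Sirpa 2 (0.81 and 0.832).

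Among macrophage and immediate early transcription factors, 3 of 19 such genes had a distal site (15.8%, 5.52 to 37.6). Klf13 had 6, scored 0.599 to 0.915 (median 0.859), Ets2 had 2 (0.602 and 0.832) and Mitf 1 (0.735). The interferon and JAK-STAT list had 2 of 15 (13.3%, 3.74 to 37.9), namely the RNA-editing enzyme Adar with 5 sites (0.587 to 0.832) and the interferon receptor Ifnar1 with 3 (0.72 to 0.854). Among Toll-like receptor and NF-kB genes 1 of 12 had distal sites (8.33%, 1.49 to 35.4), the TAK1-binding protein Tab1 with 2 (0.577 and 0.795). The intervals of these 3 lists include the background of 15.0%.

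Cell cycle regulators had distal sites in 2 of 14 genes (14.3%, 4.01 to 39.9). Cyclin D1, encoded by Ccnd1, had 6 of its 8 sites there, with scores from 0.535 to 0.912, and the highest was 189 nt before the transcript end. The cell cycle inhibitor Cdkn1a had 1 (0.839). Histone enzymes had 2 of 18 (11.1%, 3.10 to 32.8), the methyltransferase Kmt2a with 5 sites between 2074 and 2947 nt (0.852, 0.731, 0.859, 0.948 and 0.785) and the demethylase Kdm2a with 1 (0.525). In the mRNA decay list 2 of 23 (8.70%, 2.42 to 26.8) had one, the Argonaute protein Ago2 with 3 sites (0.863, 0.726 and 0.897) and the mRNA-destabilising protein Zfp36l2 with 1 (0.583). The Ago2 sites lay 9749, 9736 and 9636 nt before the transcript end, in a 3′ UTR of 11064 nt. Of the m6A writers, erasers and readers 1 of 5 had a distal site (20%, 3.62 to 62.5), the demethylase Alkbh5, with a GGACT of score 0.654 at 1152 nt.

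**Figure D5:**
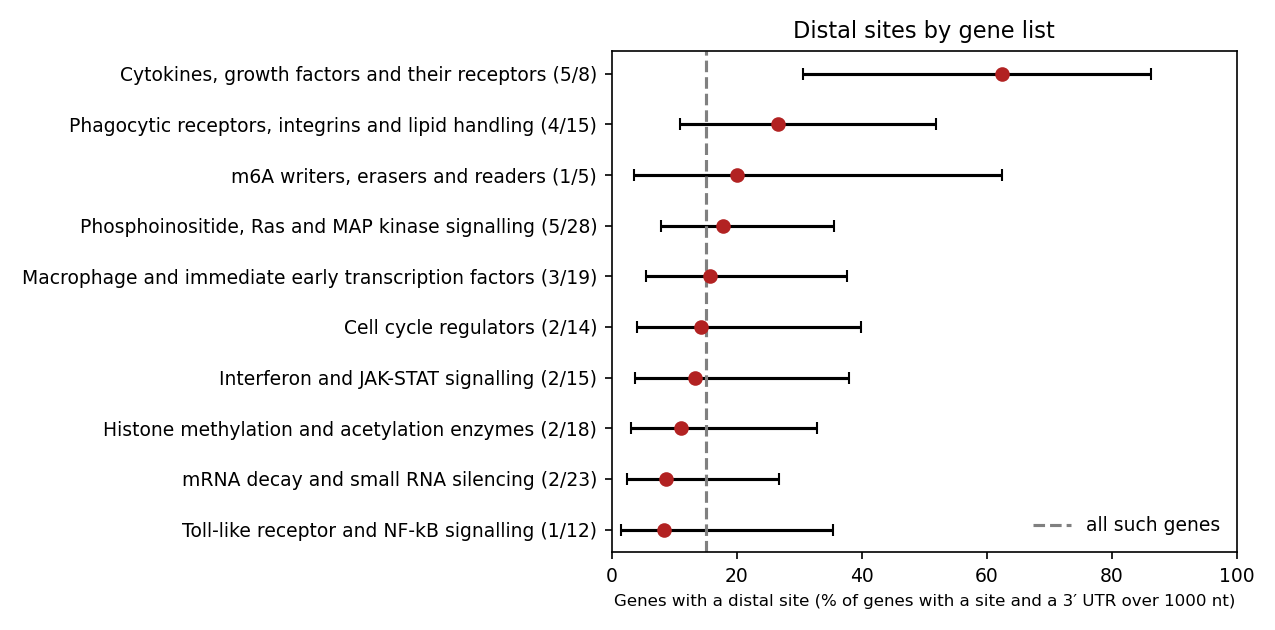
Genes with a distal site as a percentage of the genes of each list that have a listed site and a 3′ UTR over 1000 nt (x axis), with the counts in brackets beside the list names (y axis). Points are shares, bars are 95% Wilson intervals, and the dashed line is the 15.0% of all such genes. The intervals of all lists include the line except that of cytokines and their receptors (5 of 8), where Tnfrsf1b was counted only through its distal sites.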

How the data were processed

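The 3 samples are replicates of untreated RAW264.7 cells. The submitters' processing notes name STAR 2.7.3a, SAMtools 1.9, UMI-tools 1.0.0 and bedtools 2.27.1. Peaks were called with PureCLIP in each replicate, kept if present in at least 2, and scored at A by m6Aboost from the 21 nt around the A, the transcript region, C-to-T transitions and the signal strength relative to the transcript. The authors deposited 1 list of sites in which the unit is this prediction score. It describes a model call and is not a methylation level, and differences in signal or coverage can decide which sites were listed. Depth per site is not given in the list.

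Sites were placed on GENCODE M21, whereas the authors used M23 of the same build. Sites in an exon of the chosen transcripts of several genes (261) were left out, and 746 lay in no exon of a chosen transcript. Position 1 after the stop codon is the first base of the 3′ UTR. A share is given with its 95% Wilson interval. The placing was tested on simulated data, where 100% of 500 placed sites were recovered. Named were the 12 genes with most distal sites (ties to the higher mean score), the 10 sites of highest score, the 6 farthest from the stop codon, the 6 nearest the transcript end and up to 3 members per gene list with most distal sites; others were named after their values were seen. Members, lists and rules were chosen with earlier results of these data known. In 1 list, 36 of 37 genes were matched. Alternatives were minimum scores of 0.7 and 0.9, other minimum distances, other transcripts, merged neighbours, sites on several genes, a shorter end window and another motif. Python 3.11.15, NumPy 2.4.6, SciPy 1.17.1 and matplotlib 3.10.9 were used.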

Additional observations from a re-analysis of the deposited data

How the results depend on the processing

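No paired analysis was possible because all samples had 1 condition and their sites were deposited merged. Leaving out a replicate was not possible either. Of 48 values under 10 alternatives 30 stayed within 1.5 times the count or within the interval of the share as reported, and 18 moved. By construction, fewer sites were left with a minimum score of 0.7 (623) or 0.9 (127 sites in 100 genes) and over 2000 nt after the stop codon (227 sites in 104 genes), and more over 500 nt (2182 sites in 854 genes). DRACH rose from 92.2% to 98.1% at a score of 0.7, 100% at 0.9 and 95.2% over 2000 nt, and RRACH (R for A or G) was met by 79.8%. The model reads the bases around the A, so the rise of DRACH with the score includes its own weights. Within 500 nt of the transcript end lay 36.2% of sites with a score of 0.9, and within 200 nt 7.97% of all distal sites. The listed share of distal DRACH A, 1.15% of 75805, became 0.936% of 65287 at 0.7 and 0.574% of 22110 at 0.9. At these scores only transcripts that still held a listed site were counted, so the positions fell along with the sites. The share became 1.90% over 500 nt, 0.538% over 2000 nt and 1.35% on the longest spliced coding transcript. Apart from these points, the cause was not tested for the shares. Reading that transcript gave 1353 sites in 515 genes, the support filter of the study 922 in 359, and keeping sites on several genes 975 in 379. Without counts or coverage, an unlisted A may be unmethylated, unexpressed or too thinly covered, and these cannot be told apart.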
